A study of Arabidopsis thaliana with 6 samples.

Results

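Of the 679 intervals counted in each small RNA library of Arabidopsis thaliana seedlings, 4 belong to the families of ath-miR472 and ath-miR825, namely miR472, miR472-star, miR825 and miR825-star. Intervals were matched by family name, for families picked with earlier results of these data known, and "star" is the name the files give to the partner strand of the miRNA duplex. The seedlings were Col-0, 10 days old, and of 3 genotypes, namely WT, the single mutant parg1-1 and the double mutant parp1parp2, each left untreated or given flg22 at 100 nM. The peptide flg22, a piece of bacterial flagellin, sets off pattern-triggered immunity, and PARP and PARG enzymes add and remove poly(ADP-ribose) on proteins. All seedlings had been moved from agar medium into water the day before. Not given in the sources used here are the alleles behind parp1parp2, the time under flg22 and the number of seedlings pooled. Each of the 6 groups holds 1 library, so a difference between a pair of libraries has no replicate check.

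Plants detect pathogen effectors inside the cell with NLR proteins, which carry either a coiled-coil (CC) or a TIR domain at their start. NLR transcripts are kept in check by miRNAs that pair with stretches shared by many members of the family. A miRNA of 22 nucleotides that begins with U can also cause its cut targets to be copied by RDR6 and diced into secondary siRNAs, which spreads silencing through the family. In Arabidopsis miR472 is known for pairing with CC-type NLR transcripts, and for restraining resistance to bacteria. The miR825 hairpin yields a star strand known for pairing with TIR-type NLR transcripts, and both of its strands have been reported as brakes on resistance to Pseudomonas syringae.

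The sequences of the 4 intervals show which strands have the length and first base of such a trigger. They are given as RNA, read from the TAIR10.1 reference at the deposited positions, with the seed (bases 2 to 8) in capitals.
miR472: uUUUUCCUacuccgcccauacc
miR472-star: uAUGGUCGaaguaggcaaaauc
miR825: uUCUCAAGaaggugcaugaac
miR825-star: uCAAGCACcagcucgaagaagc
All 4 intervals begin with U. Those of miR472 and both star strands span 22 nucleotides, and that of miR825 spans 21. For miR472-star both features belong to the counted interval and not to the annotated strand, described below. No seed is shared among the 4, and miR865-3p is the 1 other sequence among the intervals that shares the seed of miR472. Each of the 4 sequences occurs once in the reference genome, and the nearest sequence of another interval differed from a member at 6 or more positions. No member thus had a near-identical copy among the intervals.

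MIR472 lies on the minus strand of chromosome 1, with the mature arm from 4182143 to 4182164 and the star arm from 4182266 to 4182287. The hairpin sits in a 5′ untranslated exon of 1 annotated transcript of AT1G12290, itself a CC-type NLR gene on the same strand. The reference annotates the star arm, there called miR472-5p, from 4182266 to 4182286, so the counted interval is 1 base longer at its 5′ end. The annotated strand thus begins with A and is 1 base short of the 22 given above. MIR825 lies on the plus strand of chromosome 2, with the star arm from 11159713 to 11159734 and the mature arm from 11159774 to 11159794, inside an exon of the transcribed pseudogene AT2G26220. Its arms are 39 bases apart, against 101 in MIR472. The stretch of MIR825 from the start of the star arm to the end of the mature arm is shown with both arms in capitals, because the balance of its arms is reported further on.
MIR825: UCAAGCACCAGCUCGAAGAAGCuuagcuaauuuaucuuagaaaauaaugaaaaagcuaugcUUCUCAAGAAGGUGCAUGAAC
The deposited counts carry no strand. Whether counting was stranded the sources used here do not say. AT1G12290 and AT2G26220 each lie on the same strand as the hairpin they hold. Reads from their transcripts that fall in an interval thus cannot be told apart from the miRNA, even if counting was stranded.

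The annotated mRNAs of 31346 genes were searched for sites complementary to each strand, without gaps. A mismatch scored 1 and a G:U pair 0.5, doubled at miRNA positions 2 to 13, and sites scoring 3 or less were kept. For miR472, 7 genes with such a site are described, all with the site in coding sequence. Of these, 6 are annotated as CC-type NLRs and 1 as a disease resistance protein with LRR and NB-ARC domains (AT4G10780). miR825-star had a site in 11 genes, 10 of them annotated as TIR-type NLRs and 1 as an NLR of unnamed class (AT5G40060). Its site there lies in a UTR and the other 10 in coding sequence. miR472-star and miR825 had a site in 0 genes at this score. A match is a description of sequence, not a measured cut, and target transcripts were not measured in these libraries.

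For each strand 3 sites are shown, the lowest-scoring among the genes described with ties taken by gene ID, 5′ to 3′ as DNA, with bases that form a Watson-Crick pair with the miRNA in capitals, so that the near-complete pairing can be read against the sequences above.
AT1G51480 with miR472: GGTATGGGgGGAGTAGGAAAAA
AT5G43740 with miR472: GGTATGGGgGGAGTAGGAAAAA
AT1G12290 with miR472: GGcATGGGtGGAGTAGGAAAAA
AT5G38850 with miR825-star: GCTTCTTCGAGtTGGTGCTTGA
AT4G14370 with miR825-star: GCTTCTTCGAGCTGGTGtTTGg
AT1G63730 with miR825-star: GCTTCaTCGAGCTGGTGtTTGg
The sites in AT1G51480 and AT5G43740, both CC-type NLR genes, scored 1.0 with 21 paired bases. The site in AT1G12290, on chromosome 1 from 4180683 to 4180704, scored 1.5 with 20 paired bases, so the gene whose transcript carries the MIR472 hairpin also carries a site for its product. Among the TIR-type genes, AT5G38850 scored 1.0, AT4G14370 1.5 and AT1G63730 2.5, a score that AT1G63740, AT1G63750, AT4G11170 and AT5G49140 shared.

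**Figure D1:**
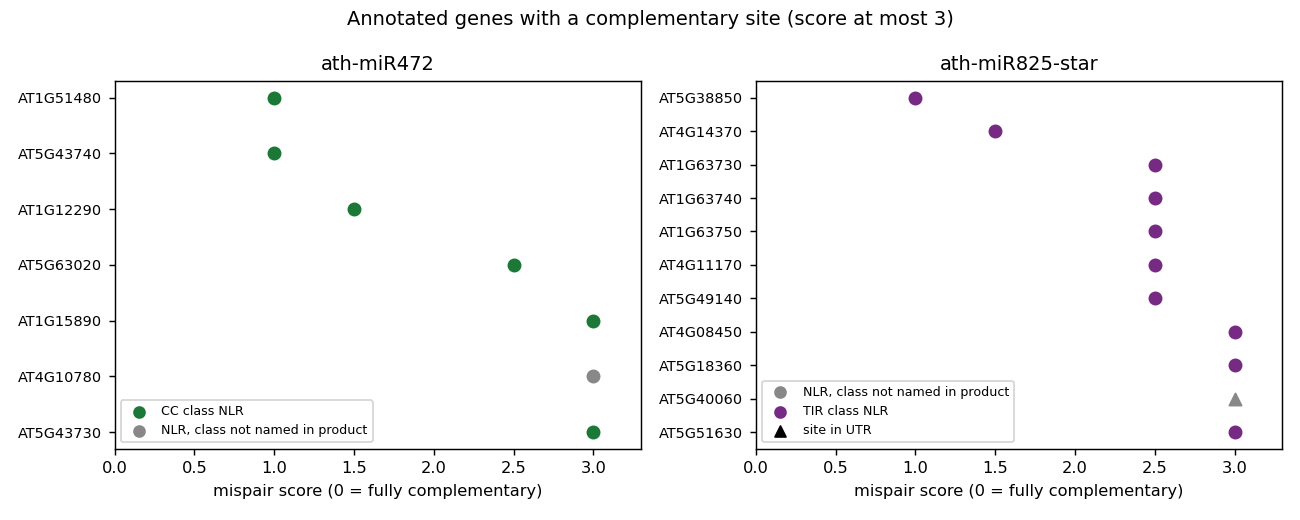
Mispair score (horizontal axis, no unit; 0 is full complementarity) of the best site in each gene described, all with a score of 3 or less, for miR472 (left, 7 genes) and miR825-star (right, 11 genes), coloured by the annotated class of the product. The genes of miR472 carry CC-type and those of miR825-star TIR-type annotations wherever a class is named, and the triangle marks a site in a UTR.

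All 6 libraries held between 247508 and 408805 counts over all intervals. miR472 was the most abundant of the 4, and its level varied little. Levels are given as CPM scaled by TMM, a method that aligns the bulk of the loci between libraries, with 95% Poisson intervals that cover counting error only. In WT, miR472 had 60 counts untreated, or 211 scaled CPM (161.3 to 272), and 82 counts with flg22, or 197 (157 to 245). The parg1-1 libraries held 79 counts untreated, or 234 (185 to 291), and 67 with flg22, or 207 (160 to 263). Those of parp1parp2 held 69 counts untreated, or 238 (185 to 301), and 70 with flg22, or 283 (221 to 358). The order from high to low was parp1parp2 with flg22, parp1parp2 untreated, parg1-1 untreated, WT untreated, parg1-1 with flg22 and WT with flg22, and the intervals of each neighbouring pair in that order overlapped. The highest level was 1.44 times the lowest. Among 51 tested sequences with 100 to 600 counts in all, 46 had a wider range over the libraries than miR472. The 51 include miR472, with 427 counts, and miR825, with 214. Counting error alone widens the range at lower counts, which was not corrected for.

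miR825 stood at about the middle of the tested sequences, and 1 library was high. In WT it had 25 counts untreated, or 88.1 scaled CPM (57.0 to 130), and 67 with flg22, or 160.98 (125 to 204). The parg1-1 libraries held 38 counts untreated, or 112 (79.6 to 154), and 28 with flg22, or 86.5 (57.5 to 125). Those of parp1parp2 held 31 counts untreated, or 107 (72.6 to 152), and 25 with flg22, or 101 (65.5 to 149). WT with flg22 was the highest, followed by parg1-1 untreated, parp1parp2 untreated, parp1parp2 with flg22, WT untreated and parg1-1 with flg22. The intervals of neighbours overlapped throughout this order. The range was 1.86-fold, and 29 of the 51 sequences named above had a wider one. By mean scaled CPM over the libraries, 55 of 136 distinct tested sequences lay above miR472 and 71 above miR825.

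The star strands were scarce. miR825-star, the strand with sites in TIR-type NLR genes, had 10 counts in untreated WT, 5 in WT with flg22, 3 in untreated parg1-1, 1 in parg1-1 with flg22, 1 in untreated parp1parp2 and 7 in parp1parp2 with flg22. Its highest values were thus in untreated WT and treated parp1parp2. miR472-star had 1 count, in untreated WT, and 0 in the other 5 libraries, where a count of 0 allows up to 3 counts. Neither star strand reached 10 counts in at least 2 libraries, so 2 of the 4 members entered the tests, miR472 and miR825.

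**Figure D2:**
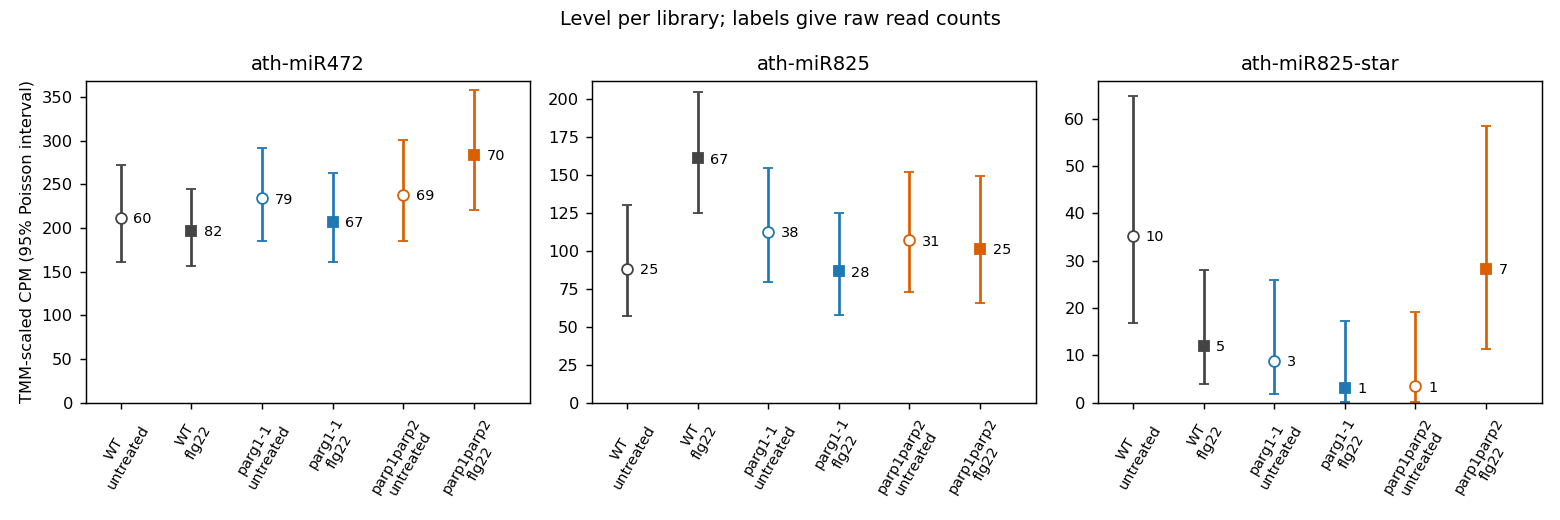
TMM-scaled CPM (vertical axes, starting at 0) of miR472, miR825 and miR825-star in each library, with 95% Poisson intervals and the raw count beside each point; open circles are untreated and filled squares treated with flg22. miR472 ranges from 197 to 283 with overlapping intervals, miR825 is highest in WT with flg22 at 160.98, and miR825-star rests on 1 to 10 counts.

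The first question of the design was the response to flg22. miR472 had a log2 ratio of flg22 to untreated of -0.10 in WT (95% exact binomial interval of counting error, -0.60 to 0.40). Its ratio was -0.18 in parg1-1 (-0.67 to 0.31) and, in parp1parp2, 0.25 (-0.25 to 0.75). All 3 intervals included 0, and changes within them were not detectable at this depth. In the additive model of genotype and treatment over all 6 libraries its log2 fold change was -0.01 ± 0.24 (SE; 95% interval -0.55 to 0.53; edgeR adjusted p = 0.996), higher with flg22 in 1 of 3 genotypes.

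miR825 had a log2 ratio of 0.87 in WT (0.19 to 1.60), a 1.83-fold higher level with flg22. The parg1-1 value was -0.38 (-1.14 to 0.36) and the parp1parp2 value -0.08 (-0.90 to 0.73). The WT interval excluded equality. The same held for 41.2% of the 187 loci tested in this pair, and for 17.6% with the flg22 library higher, so that alone does not set miR825 apart. In parg1-1 39.0% and in parp1parp2 29.4% of loci had an interval excluding equality. By size, 5 of the 136 distinct sequences had a higher ratio in WT and 130 a lower one. In parg1-1, 104 had a higher ratio than miR825 and 30 a lower one, and in parp1parp2 92 and 43. A 2-fold rule asked for a ratio of 2 or more and 50 or more counts in the higher library. By that rule 0 members were apart in the pairs of WT, parg1-1 and parp1parp2, against backgrounds of 3.74%, 1.07% and 3.74% of loci. With fewer than 50 counts in each mutant library, miR825 could not pass in the mutant pairs at any ratio. The star strands could not pass in any pair for the same reason. With each identical sequence counted once before scaling, the WT log2 ratio of miR825 was 1.04 and passed the rule.

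**Figure D3:**
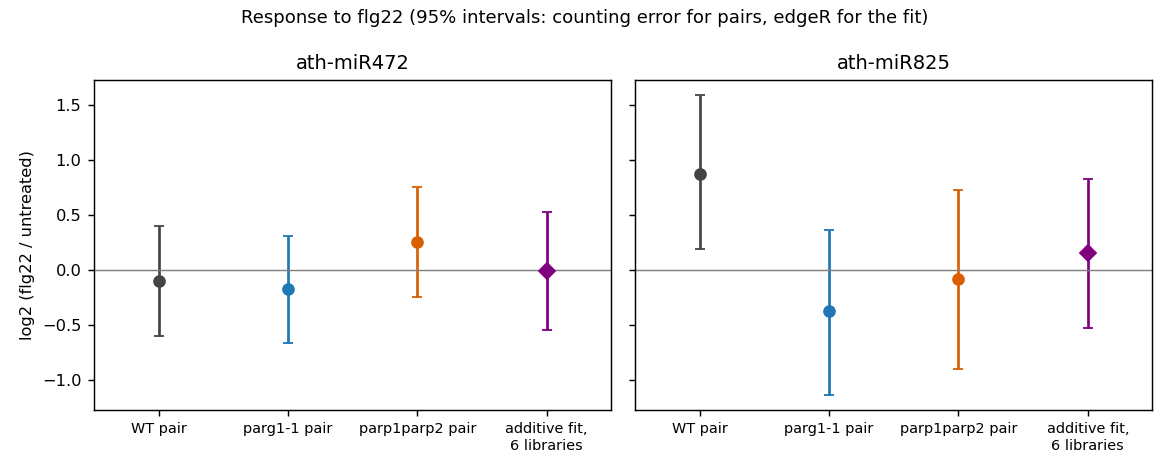
Log2 ratio of flg22 to untreated (vertical axis) for miR472 and miR825 in the pair of libraries of each genotype, with 95% intervals of counting error, and the additive fit over 6 libraries, with its 95% interval. The WT pair of miR825, at 0.87, is the 1 value whose interval excludes 0.

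Across genotypes miR825 had a log2 fold change of 0.15 ± 0.30 with flg22 (SE; interval -0.53 to 0.83; edgeR adjusted p = 0.996), higher in 1 of 3 genotypes. Without the untreated WT library it was -0.25, and without WT with flg22 -0.20. Of the 2 members tested, edgeR and DESeq2 each called 0, and 0 had an unadjusted p under 0.05. The background was 0.0% of 187 loci, and each tool found 1 locus with an unadjusted p under 0.05.

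Whether the response of miR825 differed between genotypes was examined in 2 ways. The flg22 log2 ratio of parg1-1 minus that of WT was -1.25 (95% interval of counting error by a normal approximation, -2.22 to -0.28). For parp1parp2 minus WT it was -0.95 (-1.96 to 0.06), an interval that excluded 0 with library totals alone (-2.05 to -0.03) and with identical sequences counted once (-2.23 to -0.21), and for parp1parp2 minus parg1-1 0.30 (-0.74 to 1.34). These intervals hold no variation between seedling batches, and the share of all loci with such an interval excluding 0 was not computed. The edgeR test, with a term for the WT response against the response that both mutants share, gave a log2 difference of 1.10 ± 0.63 (SE; interval -0.14 to 2.34; adjusted p = 0.668) and did not call miR825. The term leaves 1 residual degree of freedom, and 2.67% of the 187 loci were called. Its SE, interval and p draw on the spread pooled over loci, with 187 total degrees of freedom. The parp1parp2 term below also had 187, but the parg1-1 term had 9.47 and the additive fits 9.93. With identical sequences counted once the difference for the WT term was 1.33 ± 0.58 (edgeR unadjusted p = 0.0245, adjusted p = 0.416).

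For miR472 the same term was -0.14 ± 0.68 (edgeR adjusted p = 0.94). The corresponding terms for parg1-1 were -0.25 ± 0.60 for miR472 and -0.79 ± 0.72 for miR825 (edgeR adjusted p = 1 for each, background 0.0%). Those for parp1parp2 were 0.39 ± 0.47 and -0.35 ± 0.58 (edgeR adjusted p = 0.763 and 0.855, background 5.88%). Over the 3 terms edgeR called 0 of the 2 members, neither had an unadjusted p under 0.05 (a count of 0), and calls by DESeq2 were also 0.

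**Figure D4:**
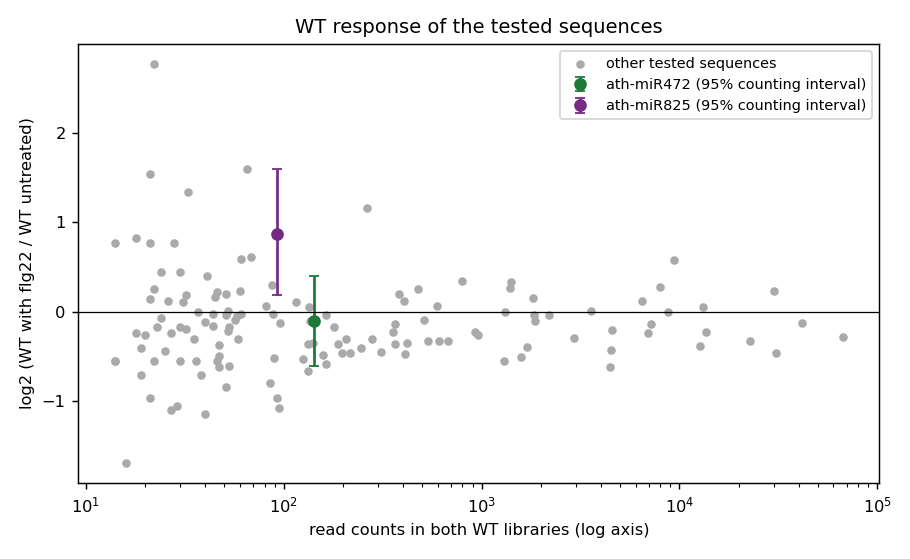
Log2 ratio of WT with flg22 to untreated WT (vertical axis) against the sum of read counts in both libraries (horizontal log axis) for the 136 distinct tested sequences, with 95% counting intervals for miR472 and miR825. miR825, at 0.87, has 5 sequences above it, and miR472, at -0.10, lies among the bulk.

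The second question was the effect of each mutant. miR472 had a log2 fold change of 0.11 ± 0.30 in parg1-1 against WT (SE; interval -0.55 to 0.77; edgeR adjusted p = 0.95), higher in 2 of 2 treatments. It had 0.35 ± 0.30 in parp1parp2 against WT (-0.31 to 1.01; edgeR adjusted p = 0.972), also higher in 2 of 2. Between the mutants, parp1parp2 over parg1-1, it had 0.24 ± 0.30 (edgeR adjusted p = 0.706). In single pairs the interval of miR472 excluded equality once, for parp1parp2 over WT with flg22, at a log2 ratio of 0.52 (0.04 to 1.00). That pair had 41.2% of loci with an interval excluding equality, and 16 of 136 sequences with a higher ratio. The untreated pair had 0.17 (-0.35 to 0.69). For parp1parp2 over parg1-1 with flg22 the ratio was 0.45 (-0.05 to 0.96). With identical sequences counted once it was 0.54 (0.04 to 1.05), which excluded equality.

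miR825 had a log2 fold change of -0.31 ± 0.37 in parg1-1 against WT (SE; interval -1.13 to 0.51; edgeR adjusted p = 0.686) and -0.25 ± 0.37 in parp1parp2 (-1.08 to 0.57; edgeR adjusted p = 0.972). Neither sign held in every fit that left out 1 library. Untreated, the ratios to WT were above 0, with parg1-1 at 0.35 (-0.41 to 1.14) and parp1parp2 at 0.28 (-0.53 to 1.10). With flg22 they were below 0, at -0.90 (-1.59 to -0.24) and -0.67 (-1.39 to 0.01), the latter excluding 0 with library totals alone (-1.42 to -0.02). These pairs share their WT libraries. Without WT with flg22 the fitted values were 0.37 for parg1-1 and 0.42 for parp1parp2, and without untreated WT -0.84 and -0.74. Without treated parg1-1 the parg1-1 value was 0.18, and without treated parp1parp2 the parp1parp2 value was 0.11. Between the mutants miR825 had 0.06 ± 0.37 (edgeR adjusted p = 0.957).

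In these genotype contrasts both edgeR and DESeq2 called 0 of the 2 members, and 0 had an unadjusted p under 0.05 in either. The background was 10.7% of 187 loci for parg1-1 against WT, 0.535% for parp1parp2 against WT and 1.07% between the mutants. By the 2-fold rule 0 members were apart in the 6 pairs of genotypes. Its minimum of 50 counts left it open to miR472 in every pair and to miR825 only in pairs with treated WT. The star strands could not pass it in any pair. The background of that rule was 4.81% untreated and 9.63% with flg22 for parg1-1 over WT, 4.28% in both states for parp1parp2 over WT, and 1.6% and 11.2% for parp1parp2 over parg1-1. Intervals excluded equality at 39.0% and 54.0% of loci for parg1-1 over WT, 46.0% and 41.2% for parp1parp2 over WT, and 46.5% and 43.9% between the mutants.

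Shares within a library need no scaling between libraries. The star strand made up 28.6% of the counts of both miR825 arms in untreated WT (10 of 35; exact Clopper-Pearson 95% interval 14.6% to 46.3%). It made up 6.94% in WT with flg22 (5 of 72; 2.29% to 15.5%). In parg1-1 it made up 7.32% untreated (3 of 41; 1.54% to 19.9%) and 3.45% with flg22 (1 of 29; 0.0873% to 17.8%). In parp1parp2 it made up 3.13% untreated (1 of 32; 0.0791% to 16.2%) and 21.9% with flg22 (7 of 32; 9.28% to 39.97%). By point value untreated WT and treated parp1parp2 were high and the other 4 libraries low. The intervals of both high libraries overlapped those of all 4 low ones. Over all distinct mature and star sequences the star share was between 3.31% and 3.91% in the 6 libraries.

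The arms of miR472 were far less balanced. miR472-star gave 1 of 428 counts of both arms over the 6 libraries, or 0.234% (0.00592% to 1.29%). Pooled in the same way, miR825-star gave 27 of 241, or 11.2% (7.51% to 15.9%). The counted miR472-star interval is 1 base longer than the annotated strand, and how reads were assigned is not given. Whether reads of the annotated length were counted is therefore not known. In the 5 libraries with 0 counts, the limit of 3 counts allows a share of up to 3.66% to 4.48%, and the exact intervals end at 4.40% to 5.36%.

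The share of miR825 among the counts of miR825 and miR472 together, a measure chosen after the values were seen, was 44.97% in WT with flg22 (67 of 149; 36.8% to 53.3%). In the other libraries it was 29.4% in untreated WT (25 of 85; 20.02% to 40.3%), 32.5% in untreated parg1-1, 29.5% in parg1-1 with flg22, 31.0% in untreated parp1parp2 and 26.3% in parp1parp2 with flg22 (17.8% to 36.4%). WT with flg22 lay above the other 5, with an interval that overlapped those of 4 of them.

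**Figure D5:**
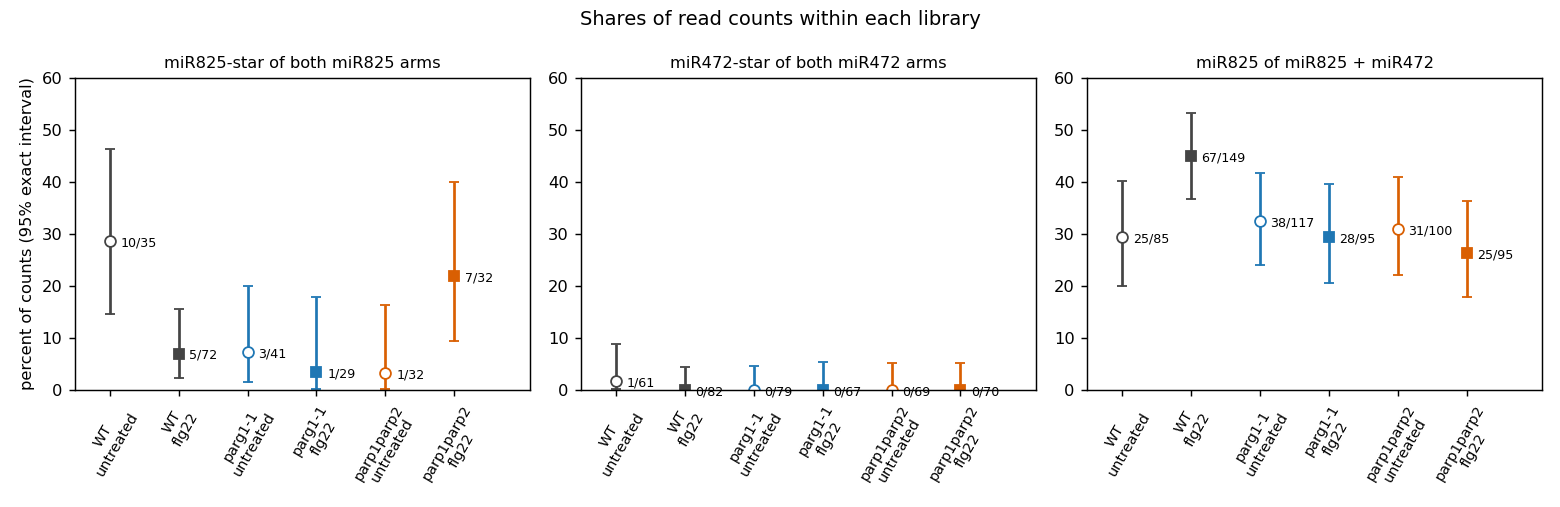
Percent of read counts (vertical axes, 0 to 60) in each library for miR825-star among both miR825 arms, miR472-star among both miR472 arms, and miR825 among miR825 and miR472, with exact 95% intervals and the counts beside each point. The miR825-star share is 28.6% in untreated WT and 21.9% in treated parp1parp2 against 3.13% to 7.32% elsewhere, and the miR825 share is highest in WT with flg22, at 44.97%.

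The sequences whose profile over the 6 libraries was most like that of each member were found by the smallest root mean square difference of centred log2 scaled CPM, among 135 distinct sequences of other families. For miR472 they were miR396a, which targets growth-regulating transcription factors, at 0.138, miR171a at 0.141 and miR171b at 0.143, the last pair from a family that targets SCARECROW-like factors. For miR825 they were miR164C, which targets NAC transcription factors, at 0.214, miR160a-star at 0.234 and miR166a, which targets HD-ZIP III transcription factors, at 0.25. These are the least distant sequences and do not match in every library. In untreated WT the centred value was -0.26 for miR825, against 0.18 for miR164C, 0.10 for miR160a-star and -0.20 for miR166a. There it was -0.10 for miR472, against 0.17 for miR396a, 0.17 for miR171a and 0.08 for miR171b. In WT with flg22, the highest library of miR825, its value was 0.56, against 0.38 for miR164C, 0.16 for miR160a-star and 0.04 for miR166a.

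Other Arabidopsis families that trigger secondary siRNAs (miR161, miR173, miR390, miR393, miR400 and miR828) were set beside the members. With miR472 and miR825 this list had 15 tested loci of 24 intervals. For flg22 0 rose and 0 fell, with a median log2 fold change of -0.12 against -0.05 over all 187 loci. The smallest p among the other families belonged to miR173-5p-star (-0.92 ± 0.42) and miR393a-star (0.52 ± 0.26, edgeR adjusted p = 0.996 for each). In parg1-1 against WT 0 of 15 rose and 0 fell, with 7 of 15 above 0 against 94 of 187 over all loci, and the list median of -0.31 is the value of miR825 itself. miR161.2, whose family pairs with transcripts of PPR proteins, had -0.83 ± 0.31 (edgeR adjusted p = 0.163), and miR393a, which pairs with auxin receptor transcripts, had -0.86 ± 0.39 (adjusted p = 0.243). In parp1parp2 against WT 0 of 15 passed, with a median of -0.06 against -0.08, and miR393a-star had -0.40 ± 0.32 and miR390a, the trigger of the TAS3 siRNAs that restrain auxin response factors, -0.26 ± 0.26 (edgeR adjusted p = 0.972 for each). Between the mutants 0 of 15 passed, with a median of 0.20 against -0.02, and miR161.2 had 0.78 ± 0.31 and miR400, also aimed at PPR transcripts, 0.96 ± 0.45 (edgeR adjusted p = 0.237 and 0.305).

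Within the same list the terms for the response of 1 genotype gave 0 calls for WT, where miR161.1 had -0.76 ± 0.32 and miR400 -1.16 ± 0.63 (edgeR adjusted p = 0.424 and 0.579). They gave 0 for parg1-1, where miR393a had -1.02 ± 0.82 and miR161.1 0.43 ± 0.44 (edgeR adjusted p = 1 for each). For parp1parp2 1 of 15 was higher, against 3 higher of 187 loci in all (5.88% called in either direction). It was miR400, at 1.68 ± 0.56 (edgeR adjusted p = 0.0493), while miR173-5p had 0.73 ± 0.41 (adjusted p = 0.482). With RLE scaling 0 loci in all were called for that term.

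A list of families reported in Arabidopsis immunity to bacteria (miR160, miR167, miR393, miR398, miR400, miR773, miR844 and miR863, with miR472 and miR825) had 26 tested loci of 44 intervals. For flg22 0 passed, with a median of -0.11 against -0.05, and miR398a had 0.98 ± 0.53 (edgeR adjusted p = 0.996). For parg1-1 against WT 0 rose and 1 of 26 fell, a smaller share than the 16 of 187 loci that fell in all (10.7% called in either direction). It was miR398a, of a family that targets copper/zinc superoxide dismutases, at -3.21 ± 0.65 (edgeR adjusted p = 0.0263), with a list median of -0.32 against 0.01. Its counts ran from 30 to 360, those of its near-identical relative miR398b from 20186 to 36642, and the division of reads between them is uncertain. Without untreated WT, or without either parg1-1 library, 0 loci in all were called in this contrast. miR167d, which targets auxin response factors, had -0.96 ± 0.40 (edgeR adjusted p = 0.217).

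For parp1parp2 against WT 0 of the 26 passed, with a median of -0.07 against -0.08, and miR398b-star had -0.57 ± 0.24 and miR844-3p 1.09 ± 0.48 (edgeR adjusted p = 0.53 for each). Between the mutants 0 passed, with a median of 0.34 against -0.02, and miR398a had 2.36 ± 0.66 and miR160a 0.83 ± 0.28 (edgeR adjusted p = 0.108 and 0.143). The WT term called 0, with miR398b at -0.40 ± 0.20 and miR398C-star at -1.20 ± 0.64 (edgeR adjusted p = 0.517 and 0.579). The parg1-1 term called 0, with miR167d at -1.49 ± 0.52 and miR398C-star at 1.57 ± 0.86 (edgeR adjusted p = 1 for each). The parp1parp2 term was higher for 2 of 26, against 3 higher of 187 loci in all (5.88% called in either direction), namely miR400 as above and miR398a at 2.86 ± 0.46 (edgeR adjusted p = 5.4e-07). With RLE scaling this term called 0 loci, miR398a included (smallest edgeR adjusted p = 0.227).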

How the data were processed

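Small RNA reads of 6 libraries, 1 per group, were analysed. The authors deposited whole-number read counts over 679 named intervals per library. The tools named per the submitters' processing notes are Bowtie 0.12.8 and bedtools, and the build TAIR10. How reads were assigned is a step not given in the sources used here. Each of 337 mature intervals coincided with miRNAs annotated on TAIR10.1, the reference used for strand, sequence and gene context. Of 334 star intervals 54 did, and those of miR472-star and miR825-star were not among them.

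The two-sided quasi-likelihood test of edgeR 4.0.16 (glmQLFit, glmQLFTest; limma 3.58.1 under R 4.3.3) was run on the deposited counts with TMM scaling and an additive model of genotype and treatment with 2 residual degrees of freedom. It covered 187 loci (136 sequences) that reached 10 counts in 2 or more libraries, and calls were made at a Benjamini-Hochberg adjusted p under 0.05. The residual holds library noise and genotype-specific response together, the biological coefficient of variation was 22.8%, and since nothing says that libraries came from separate cultures, a p-value covers only the spread between them, which may be technical. The script was tested on simulated data with larger changes than those of miR472 and miR825 and a smaller spread between libraries. How it performs at effects of their size was not tested. Pair ratios, shares and levels carry exact 95% intervals (scipy 1.17.1). PCR reads without molecular identifiers are not independent molecules, so these and the limit of 3 counts at a count of 0 cover counting error only. Chi-square per degree of freedom between libraries ran from 15.2 to 78.1, so none was deposited in duplicate.

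Alternatives were DESeq2 1.42.0, RLE scaling, library totals, no filter, identical sequences counted once, and leaving out each library. The text names the members, the 3 sequences most alike (log2 scaled CPM, prior count 2), the 3 lowest-scoring sites described, and from each list the loci called and the 2 sequences of smallest p per contrast. Some genes with a site for miR472 are not reported here. Members and lists were chosen with earlier results of these data known.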

Additional observations from a re-analysis of the deposited data

Results flagged for a closer look

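The flg22 log2 ratio of miR825 was 0.87 in WT (0.19 to 1.60) and -0.38 in parg1-1, where the interval included 0 (-1.14 to 0.36). The difference was -1.25 (95% counting interval -2.22 to -0.28), with no background over all loci computed. The edgeR test of the WT response against that shared by both mutants did not call it (adjusted p = 0.668).

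The flg22 log2 ratio of miR825-star was 3.04 in parp1parp2 (0.08 to 8.53), an interval that included 0 with identical sequences counted once (-0.02 to 8.43). The ratio was -1.55 in WT (-3.45 to 0.13) and -1.52 in parg1-1 (-7.24 to 2.12), both with intervals including 0. The parp1parp2 ratio differed by 4.59 from that of WT (1.19 to 7.99) and by 4.56 from that of parg1-1 (0.11 to 9.01). Its untreated libraries held 1 count in parp1parp2, 10 in WT and 3 in parg1-1, and its treated ones 7, 5 and 1. The normal approximation behind the intervals of these differences is poor at such counts, and no background over all loci was computed for them. On the same counts its log2 ratio to WT untreated was -3.35 in parp1parp2 (-8.79 to -0.54) and -1.99 in parg1-1 (-4.49 to -0.03). The latter interval included 0 with RLE scaling (-4.36 to 0.10). With flg22 the ratio of parp1parp2 to parg1-1 was 3.20 (0.24 to 8.69). Its intervals in the other pairs of genotypes included 0. miR825-star entered edgeR fits only with no filter on low counts, where the parp1parp2 term was 4.48 (1.27 to 7.70; edgeR unadjusted p = 0.0064, adjusted p = 0.173) and the WT term -2.55 (unadjusted p = 0.151, adjusted p = 1), so neither was called.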

How the results depend on the processing

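edgeR and DESeq2 called 0 members under every alternative run. The smallest adjusted p was 0.496 for miR472 and 0.395 for miR825, over 52 alternative fits each. Of these, 42 kept the sign for miR472 and 43 for miR825. The flg22 value of miR472, main -0.01, was 0.0088 with RLE scaling, 0.0090 with DESeq2, 0.057 with no filter and 0.011 with identical sequences counted once. With no filter miR825 between the mutants was -0.020, and with identical sequences counted once the WT term of miR472 was 0.089.

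Leaving out 1 library at a time (1 residual degree of freedom) gave ranges for flg22 of -0.14 to 0.10 for miR472 and -0.25 to 0.43 for miR825. For parg1-1 against WT they were -0.019 to 0.33 and -0.84 to 0.37, for parp1parp2 against WT 0.34 to 0.54 and -0.74 to 0.42, and between the mutants 0.14 to 0.44 and -0.27 to 0.49. The terms for 1 genotype were not refitted this way, since no residual is left.

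In pairs, 0 of 54 alternative ratios and 0 of 18 alternative differences of responses left the counting interval of the main value. miR825 in WT passed the 2-fold rule with identical sequences counted once (1 member apart, against 0). There 3 of 136 sequences in all were apart, in place of 7 of 187 loci. In that setting 4 loci were apart for flg22 in parp1parp2 in place of 7, and against WT 5 untreated and 4 with flg22 in parp1parp2 in place of 8 each. Between untreated mutants 5 were apart with RLE scaling and 7 with library totals, in place of 3.

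Over all loci, leaving out a library gave 0 to 3 calls for flg22 (main 0), 0 to 32 for parg1-1 (20), 0 to 8 for parp1parp2 (1) and 0 to 26 between the mutants (2). DESeq2 gave 10 for parg1-1, 8 between the mutants, 0 for the WT term (5) and 2 for the parp1parp2 term (11). Identical sequences counted once, with 136 tested in place of 187, gave 12, 13, 1 and 5 for these. No filter, with 406 tested, gave 2 for parp1parp2, 4 between the mutants and 3 for the WT term. RLE scaling gave 9 between the mutants and 0 for the parp1parp2 term. In parg1-1 the split was 4 higher and 16 lower with edgeR and 5 and 5 with DESeq2. No paired analysis was possible because each group holds 1 library and the labels number no replicates to serve as a block. The additive model itself compares flg22 with untreated within genotype. With 60 to 82 counts for miR472 and 25 to 67 for miR825, depth limits what a single pair can show.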
